A study of Mus musculus with 4 samples.

Results

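The fatty acid binding protein family was followed through RNA-seq of *rd7* and wild-type mouse retinas. Of the 22095 loci in the table of gene levels, 8 are its members here, *Fabp1* to *Fabp7* and *Fabp12*. They were taken by gene symbol, and *Fabp7* was chosen from its measured values, because its rise in *rd7* retinas was the largest among the genes tested. Its difference between genotypes is therefore given as a description without a test, and the 7 paralogs are set beside it. The *rd7* mouse carries a mutation of *Nr2e3*, the gene of a transcription factor that represses cone genes in developing rods. The labels name the strain of all 4 libraries as C57BL/6J, the genotype of 2 as Nr2e3 mutant and that of the other 2 as wild-type, and give no other allele and no treatment. Each library pooled 8 retinas of 2 females and 2 males aged 3 weeks, so that a library stands for a pool and not for 1 animal.

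Fatty acid binding proteins are small cytosolic proteins whose barrel of beta strands holds a long-chain fatty acid, retinoid or bile acid and carries it between membranes and enzymes. Each paralog has tissues of its own, such as liver for *Fabp1*, small intestine for *Fabp2*, heart and muscle for *Fabp3* and fat cells for *Fabp4*. *Fabp7*, the brain type, binds docosahexaenoic acid, is a well-known marker of radial glia, and in the retina is known from progenitors and Müller glia.

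The paralogs resemble each other in sequence, which matters for reads of 50 bases. The coding sequence of *Fabp7* is 399 nt long, and its identity with those of its 7 paralogs ran from 50.4% for *Fabp1* to 66.2% for *Fabp3*. It was 61.7% with *Fabp4*, 55.4% with *Fabp12*, 55.3% with *Fabp5*, 52.2% with *Fabp6* and 51.1% with *Fabp2*. The 50 bases in which *Fabp7* and *Fabp3* are most alike are shown to let a reader judge how far a read tells them apart, with the aligned stretch of the other members detected in retina. They start at coding base 44 of *Fabp7*, and capitals mark bases that differ from *Fabp7*.
Fabp7: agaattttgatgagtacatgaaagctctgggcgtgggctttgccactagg
Fabp3: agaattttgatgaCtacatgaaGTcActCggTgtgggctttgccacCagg
Fabp4: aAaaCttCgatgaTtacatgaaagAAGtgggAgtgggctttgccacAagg
Fabp5: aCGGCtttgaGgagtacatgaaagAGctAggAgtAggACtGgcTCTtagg
Fabp12: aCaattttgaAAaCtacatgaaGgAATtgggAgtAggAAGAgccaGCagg
*Fabp3* differed from *Fabp7* at 7 of these positions and *Fabp4* at 9, and 7 mismatches were the fewest in any 50 bases between any pair of members.

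The members are less well separated from copies of themselves elsewhere in the genome. Of the 774 windows of 50 bases in the *Fabp3* mRNA, 91.1% were found outside the *Fabp3* locus in mm9 with up to 2 mismatches and 56.8% without any. For *Fabp5*, the epidermal type, 66.1% of 938 windows were found elsewhere with up to 2 mismatches and 43.6% without any. For *Fabp12* this held for 41 of 2463 windows, all of them with at least 1 mismatch. No window of *Fabp7*, *Fabp1*, *Fabp2*, *Fabp4* or *Fabp6* had such a copy. How the authors' software shared reads between these places is not given in the sources used here, so the levels of *Fabp3* and *Fabp5* are less certain than those of *Fabp7*, *Fabp12* and *Fabp4*.

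**Figure D1:**
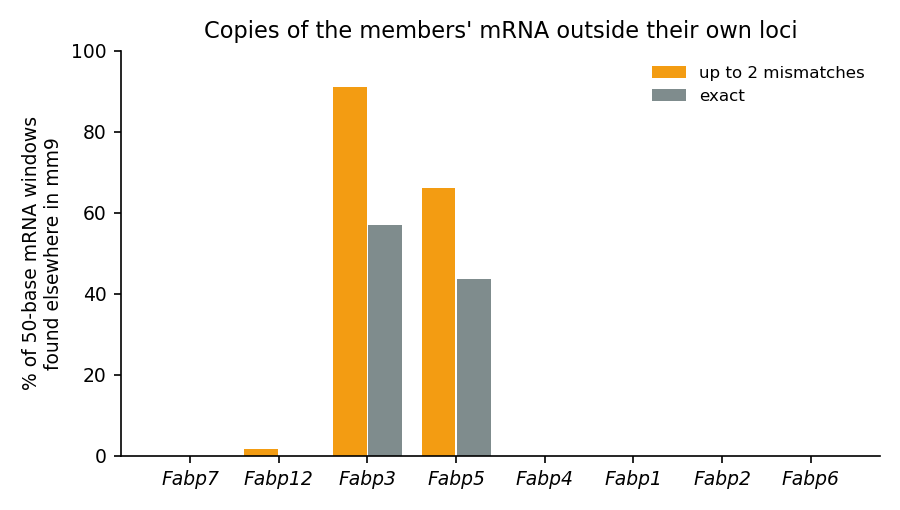
Share of 50-base windows of each member's mRNA found outside its own locus in mm9, in percent, with up to 2 mismatches (orange) or without any (grey). *Fabp3* (91.1% and 56.8%) and *Fabp5* (66.1% and 43.6%) have copies elsewhere, while *Fabp7* has none.

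Levels are FPKM, fragments divided by transcript length and by the number of mapped fragments, as deposited. The table gives no read counts, and the worth of 1 read, taken from the lowest values of genes with a single transcript, corresponds to 3.43e+07 to 3.50e+07 reads per library. Tests used log2(FPKM + 0.1) in 12655 genes, those whose FPKM averaged 1 or more, with limma and Benjamini-Hochberg adjustment over all of them at an FDR of 5%. The added 0.1 makes fold changes of low genes smaller than they are. *Nr2e3*, on chromosome 9 of mm9 from 59790578 to 59797886, stood at 2493 and 1589 FPKM in *rd7* and at 385 and 394 in wild-type retinas, so its mRNA was present and higher in the mutant (log2 fold change 2.35, standard error 0.20, adjusted p = 0.0011 from limma). Retinal markers were high in all 4 libraries, with *Sag* (rod arrestin) between 2719 and 2916 FPKM and *Glul* (glutamine synthetase of Müller glia) between 904 and 1011. Over all genes tested, the median log2 fold change was 0.15 and moved to -0.0049 once the libraries were scaled by median ratios, and the fold changes that follow are to be read against it. In pooled whole retinas, fewer cells of a type and less RNA per cell cannot be told apart.

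*Fabp7* lies on chromosome 10 of mm9 from 57504729 to 57508256 on the plus strand, with 2 annotated transcripts, one of 4 exons and 804 nt, used here for windows and estimated reads, and one of 3 exons and 880 nt. It stood at 146 and 81.6 FPKM in *rd7* replicates 1 and 2, and at 2.45 and 2.14 FPKM in wild-type replicates 1 and 2. Both *rd7* libraries were thus far above both wild-type libraries, and the lowest *rd7* value was 33.2 times the highest wild-type value. In estimated reads these levels correspond to 4091 and 2252 in *rd7* against 68 and 60 in wild-type retinas, so the wild-type level is low but was measured in each library.

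The mean of *Fabp7* was 114 ± 45.4 FPKM in *rd7* and 2.30 ± 0.22 FPKM in wild-type retinas (SD, n = 2 libraries each), a ratio of 49.5. On the log2 scale the difference was 5.51 with a standard error of 0.26, place 1 among 12655 genes tested. The next largest rise, just outside this choice, was that of *Ppef1*, a protein phosphatase gene of sensory neurons, at 5.08. By level, *Fabp7* moved from place 11036 among all loci in wild-type to place 513 in *rd7* retinas.

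The 2 *rd7* pools differed in *Fabp7* by more than most genes did. Replicate 1 was 1.79 times replicate 2, a difference of 0.84 on the log2 scale, whereas the median gene differed by 0.095 between these libraries. A larger difference was seen in 1.08% of the genes tested. *Nr2e3* was also higher in *rd7* replicate 1, by 1.57 times. The spread is small beside the difference between genotypes, which was 5.09 on the log2 scale without *rd7* replicate 1 and 5.93 without *rd7* replicate 2.

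**Figure D2:**
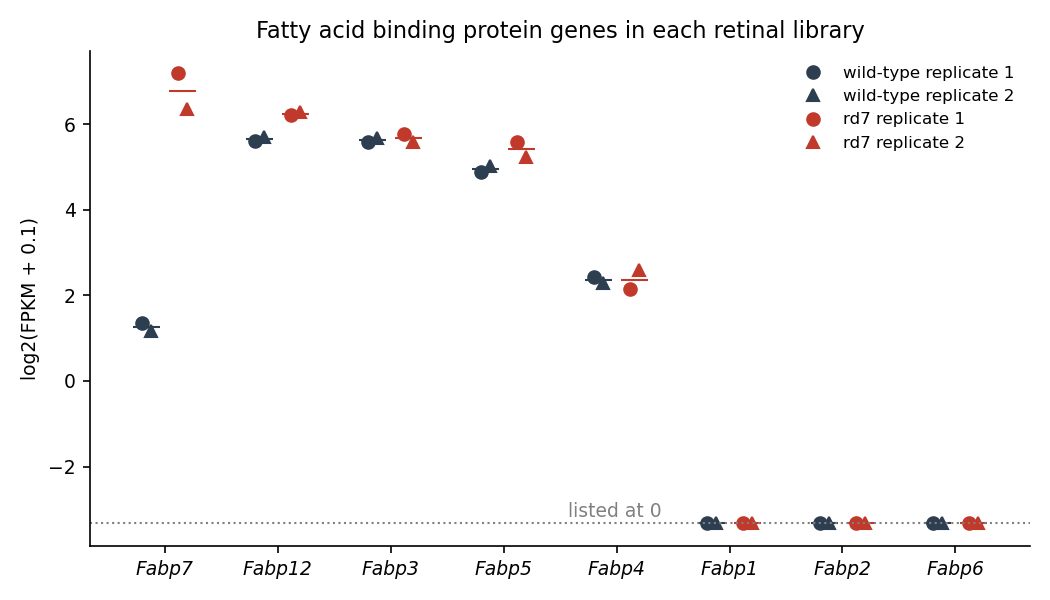
Level of each member in each library as log2(FPKM + 0.1), with wild-type libraries in dark blue, *rd7* libraries in red, circles for replicate 1, triangles for replicate 2 and bars for the mean. *Fabp7* separates the genotypes (146 and 81.6 against 2.45 and 2.14 FPKM), *Fabp12* and *Fabp5* do so by far less, *Fabp3* and *Fabp4* overlap, and *Fabp1*, *Fabp2* and *Fabp6* sit on the dotted line at 0 FPKM.

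The 250 bases before the start of *Fabp7* are shown because they lie next to the member with the largest change, and the letters of 5 motifs were searched in them, those of NR2E3, CRX, RBPJ and nuclear factor I and the TATA box. The sequence is from RefSeq (GRCm38.p6) and matches mm9 once on its chromosome, at chr10:57504479-57504728, plus strand. Capitals mark the motifs found.
Fabp7: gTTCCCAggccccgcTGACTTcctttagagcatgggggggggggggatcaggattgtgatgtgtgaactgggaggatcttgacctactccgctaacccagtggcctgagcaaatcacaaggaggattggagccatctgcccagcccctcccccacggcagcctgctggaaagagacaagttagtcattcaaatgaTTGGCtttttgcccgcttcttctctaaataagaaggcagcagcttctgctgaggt
Letters were searched on both strands, and no match overlaps another. AAGTCA, the half-site of NR2E3, occurs once, on the minus strand from base -235, and is held by 13.1% of all 32851 promoters in the RefSeq table. TGGGAA, the core of RBPJ sites (the DNA-binding factor of Notch signalling), occurs once on the minus strand from base -249 and is held by 21.6% of promoters. TTGGC, the half-site of nuclear factor I, occurs once on the plus strand from base -55 and is held by 41.5% of promoters. TAATCC, the site of the photoreceptor factor CRX, and the TATA box TATAAA do not occur in this window and are held by 6.25% and 12.4% of promoters. A match of letters is not a measured site. The same half-site AAGTCA was also found once each in the promoters of *Fabp1* and *Fabp6*, which were listed at 0, and not in those of *Fabp2* and *Fabp3*.

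Of the 7 paralogs, 4 passed the filter on low values, 2 of these were called higher in *rd7* retinas and 0 lower, beside 37.6% of all genes tested called higher and 8.8% called lower. Their median log2 fold change was 0.25, against 0.15 over all genes tested. Under median-ratio scaling, which moved the number called higher among all genes to 2492 and the number called lower to 2479, 1 of the 4 paralogs was called higher, as it was without wild-type replicate 1 or wild-type replicate 2.

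*Fabp12*, a member known from retina and testis, had the clearest difference among the paralogs. It lies on chromosome 3 from 10244209 to 10301183 on the minus strand, and stood at 73.7 and 78.0 FPKM in *rd7* against 48.2 and 52.0 in wild-type retinas. The groups did not overlap, and each pair of replicates lay within a few FPKM of each other. The log2 fold change was 0.60 (standard error 0.06, adjusted p = 0.0016 from limma), or 1.51-fold. It was 0.44 when scaled by median ratios, 0.29 when corrected for GC content and length and 0.54 to 0.65 with 1 library left out. With all 4 libraries kept, adjusted p from limma ranged from 0.00084 to 0.0405 over the alternatives.

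*Fabp5*, the epidermal type, which is also widely expressed in neural tissue, lies on chromosome 3 from 10012606 to 10016610 on the plus strand. It stood at 48.2 and 37.6 FPKM in *rd7* and at 29.6 and 32.6 in wild-type retinas. Both *rd7* libraries were above both wild-type libraries, with replicate 1 the higher of the *rd7* pools as for *Fabp7*. The log2 fold change was 0.45 (standard error 0.12, adjusted p = 0.028 from limma), or 1.37-fold. Scaling by median ratios ended the call (0.30, adjusted p = 0.094), as did the correction for GC content and length (0.22, adjusted p = 0.222) and leaving out wild-type replicate 1 (0.38, adjusted p = 0.156) or wild-type replicate 2 (0.52, adjusted p = 0.0737).

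*Fabp3*, the heart and muscle type, lies on chromosome 4 from 129986022 to 129992707 on the plus strand. It stood at 54.8 and 47.9 FPKM in *rd7* and at 48.2 and 50.9 in wild-type retinas, so that the groups overlapped. Its log2 fold change was 0.05 (standard error 0.08, adjusted p = 0.63 from limma), and the sign turned with median-ratio scaling (-0.11). Without *rd7* replicate 2 the log2 fold change was 0.15.

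*Fabp4*, the fat cell and macrophage type, lies on chromosome 3 from 10204343 to 10208576 on the minus strand. It stood at 4.30 and 5.92 FPKM in *rd7* and at 5.29 and 4.78 in wild-type retinas, on an estimated 96 to 129 reads per library. The groups overlapped, and the log2 fold change was 0.01 (standard error 0.15, adjusted p = 0.98 from limma) and turned to -0.15 with median-ratio scaling. Of the 6 fat cell genes listed, *Adipoq* and *Lep* were at 0 in all 4 libraries, *Cfd*, *Cidec* and *Plin1* were at most at 0.264 FPKM, and *Retn* ran from 1.43 to 2.80 FPKM.

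*Fabp1* (liver type), *Fabp2* (intestinal type) and *Fabp6* (the ileal bile acid carrier) were listed at 0 in all 4 libraries with a successful estimate, as were 3508 of all loci. *Fabp1* lies on chromosome 6, *Fabp2* on chromosome 3 and *Fabp6* on chromosome 11. A level of 3 reads would correspond to 0.155 to 0.158 FPKM for *Fabp1*, 0.0889 to 0.0906 for *Fabp2* and 0.179 to 0.183 for *Fabp6*, from the depth estimated above and counting error only. Lower levels were not detectable at this depth. No ribosomal protein gene of 73 was listed at 0 in any library. Of 8 genes of liver and gut, *Apoa4* was at 0 in all 4 libraries and *Alb* at most at 0.0266 FPKM, *Apoa1* ran from 0.279 to 0.445 and *Vil1* from 0.791 to 1.11, and *Ttr* ran from 13.1 to 39.3 FPKM.

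Within the family, the order of levels changed with genotype. In wild-type retinas *Fabp12* (48.2 to 52.0 FPKM) and *Fabp3* (48.2 to 50.9) came first and overlapped, followed without overlap by *Fabp5* (29.6 to 32.6), *Fabp4* (4.78 to 5.29) and *Fabp7* (2.14 to 2.45). In *rd7* retinas *Fabp7* (81.6 to 146 FPKM) came first, followed without overlap by *Fabp12* (73.7 to 78.0). *Fabp3* (47.9 to 54.8 FPKM) and *Fabp5* (37.6 to 48.2) came next and overlapped each other, and *Fabp4* (4.30 to 5.92) stood last among the members detected.

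The make-up of the family's FPKM differed as well. The 8 members summed to 327 and 251 FPKM in *rd7* and to 134 and 142 FPKM in wild-type retinas. *Fabp7* made up 44.6% and 32.5% of this sum in *rd7*, against 1.84% and 1.503% in wild-type retinas. The 7 paralogs alone summed to 175 ± 8.16 FPKM in *rd7* and to 136 ± 6.36 FPKM in wild-type retinas (SD, n = 2 each), a difference that lies mainly in *Fabp12* and *Fabp5*. No paralog was lower by a call while *Fabp7* was higher.

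**Figure D3:**
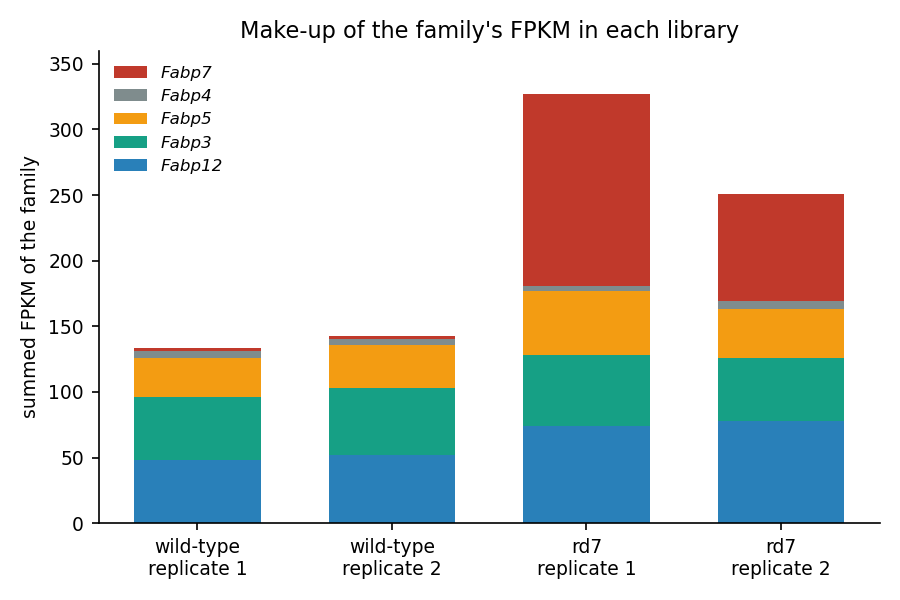
Summed FPKM of the family in each library, stacked by member, with the members listed at 0 left out. *Fabp7* (red) fills 44.6% and 32.5% of the *rd7* columns and under 2% of the wild-type columns, while the remaining colours add up to 169 to 181 FPKM in *rd7* and 131 to 140 in wild-type retinas.

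The family belongs to a wider group of intracellular lipid-binding proteins. Of 7 further members of that group, 3 passed the filter, with 1 higher, 1 lower and a median log2 fold change of 0.26. Over all genes tested, 37.6% were higher and 8.8% lower, with a median of 0.15. *Crabp2*, a retinoic acid carrier, was lower, at 1.17 and 1.13 against 1.76 and 1.71 FPKM (-0.55, adjusted p = 0.021 from limma), a call lost without either wild-type library.

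*Crabp1*, the other retinoic acid carrier, stood at 28.9 and 17.6 FPKM in *rd7* and at 18.9 and 18.8 in wild-type retinas, so that *rd7* replicate 1 alone was high. Its log2 fold change of 0.26 was not called (adjusted p = 0.36 from limma), turned to -0.10 without *rd7* replicate 1, and was 0.61 without *rd7* replicate 2. *Pmp2*, the myelin member closest to *Fabp4* by coding identity (71.4%), ran from 0.366 to 0.992 FPKM. *Fabp9*, the testis member, ran from 0.0765 to 0.244 FPKM, *Rbp7* from 0.0751 to 0.233, and *Rbp2* was at 0 in 3 of 4 libraries.

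**Figure D4:**
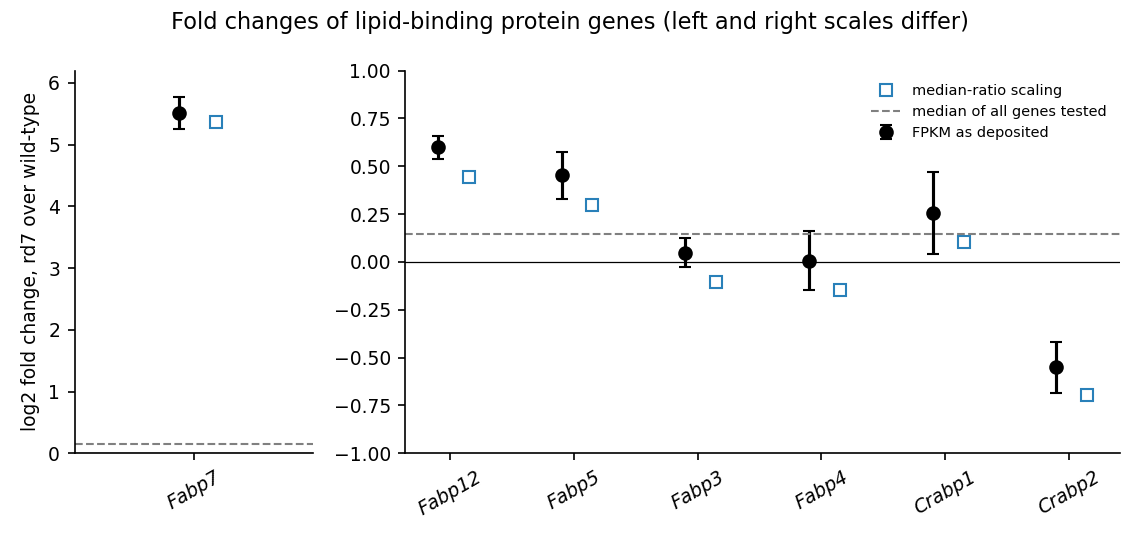
Log2 fold change of *rd7* over wild-type retinas for members and related lipid-binding genes, with *Fabp7* on its own scale at the left. Black points are FPKM as deposited with the standard error, blue squares are median-ratio scaling, and the dashed line is the median of all genes tested at 0.15. *Fabp12* and *Fabp5* lie above this line and *Fabp3*, *Fabp4* and *Crabp2* below it.

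In the genome, *Fabp5*, *Pmp2*, *Fabp9*, *Fabp4* and *Fabp12* lie in this order on chromosome 3, and *Fabp7* lies apart on chromosome 10. No listed locus overlaps any member. The locus that follows *Fabp7* on the same strand, 6.09 kb away, is *Smpdl3a*, a phosphodiesterase gene of the acid sphingomyelinase family. It stood at 8.53 and 6.30 FPKM in *rd7* and at 1.74 and 1.75 in wild-type retinas, without overlap and with replicate 1 again the higher *rd7* pool. Its log2 fold change was 2.01 (standard error 0.15, adjusted p = 0.00085 from limma), 1.86 when scaled by median ratios and 1.79 when corrected for GC content and length. *Pkib*, 43.8 kb before *Fabp7*, ran from 0.349 to 0.531 FPKM in the 4 libraries and was not tested.

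The neighbours of the paralogs moved less. *Impa1*, 12.4 kb from *Fabp12*, was higher by 0.39 (adjusted p = 0.0047 from limma), and also when scaled by median ratios (0.23, adjusted p = 0.0295), but not when corrected for GC content and length (0.09, adjusted p = 0.327). *Zcchc17*, 0.621 kb from *Fabp3*, was higher by 0.20 (adjusted p = 0.018 from limma), a call that scaling by median ratios (0.05) or correcting for GC content and length (0.07) ended. *Pag1*, 179 kb from *Fabp5*, was higher by 0.81 (adjusted p = 0.0026 from limma). Beside the members listed at 0, *Thnsl2* (0.86, adjusted p = 0.032 from limma) near *Fabp1* and *Ccnjl* (0.30, adjusted p = 0.049 from limma) near *Fabp6* were called higher and lost the call with median-ratio scaling, *Pwwp2a*, *Pde5a* and *1810037I17Rik* were not called, and *Smyd1* was too low to test. *Serinc2*, 33.2 kb before *Fabp3*, was also too low to test.

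The 5 genes whose values over the 4 libraries were nearest to those of *Fabp7*, by Euclidean distance of log2(FPKM + 0.1) centred on each gene's mean, were *Cd8a* (0.52), *1100001G20Rik* (0.88), *Ppef1* (1.03), *Nat1* (1.33) and *Tmem26* (1.56). The median distance of all genes tested was 5.40. *Cd8a*, a surface protein gene of cytotoxic T cells, followed the difference between the *rd7* pools as well, at 19.5 and 9.04 FPKM in *rd7* against 0.2797 and 0.313 in wild-type retinas. *Ppef1* and *Nat1* had their higher *rd7* value in replicate 2, at 18.2 against 12.9 FPKM and 19.1 against 12.9 FPKM. *Tmem26* stood at 25.2 and 21.5 against 1.27 and 1.39 FPKM. With 4 libraries this likeness is a description, and it was measured on the same values that chose *Fabp7*.

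Fatty acid binding proteins take up fatty acids that enter through carriers and receptors and pass them to activation, storage, oxidation and nuclear receptors. Of 67 genes of these steps, 56 were tested, 18 were higher and 7 lower, with a median log2 fold change of 0.11, against 37.6% higher and 8.8% lower over all genes. With median-ratio scaling 10 were higher and 13 lower, beside 19.7% higher and 19.6% lower over all genes. The balance of calls thus moved with the scaling in all genes as well as in these. Without wild-type replicate 1, 9 were higher and 1 lower, and without wild-type replicate 2, 11 and 0.

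Among 10 genes of uptake tested, 3 were higher (30%) and 1 lower (10%), beside 37.6% and 8.8% of all genes tested. *Cav1* (caveolin) rose by 0.59 from 15.3 and 15.3 FPKM in wild-type to 24.1 and 22.0 in *rd7* retinas (adjusted p = 0.0019 from limma). *Lpl*, lipoprotein lipase, was higher by 0.44, a call lost with median-ratio scaling, and *Vldlr*, the very low-density lipoprotein receptor, by 0.35, which was 0.0079 (adjusted p = 0.916 from limma) when corrected for GC content and length. *Cd36*, the scavenger receptor for long-chain fatty acids, was under 0.47 FPKM in every library.

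Activation and storage held 13 tested genes, of which 5 were higher (38.5%) and 1 lower (7.7%), with a median of 0.24. These shares are near the 37.6% and 8.8% over all genes tested. *Acsl1*, which couples long-chain fatty acids to coenzyme A, stood at 48.8 and 47.7 FPKM in *rd7* and at 23.8 and 23.4 in wild-type retinas, without overlap (1.03, adjusted p = 0.00023 from limma). It was called higher also when scaled by median ratios (0.87) or corrected for GC content and length (0.72). *Acsl3* of the same family was higher by 0.52, but not when corrected for GC content and length (0.20, adjusted p = 0.073 from limma). *Plin2*, a coat protein of lipid droplets, was higher by 0.48, but not when scaled by median ratios or so corrected, and *Dgat1*, which makes triglycerides, was lower (-0.44).

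Of 19 tested genes of oxidation, 8 were higher (42.1%) and 2 lower (10.5%), with a median of 0.15. These shares are near the 37.6% and 8.8% over all genes tested. *Slc25a20*, the carnitine-acylcarnitine carrier of the inner mitochondrial membrane, stood at 11.2 and 9.06 FPKM in *rd7* and at 5.45 and 5.80 in wild-type retinas (0.83, adjusted p = 0.0033 from limma). *Hadh*, of mitochondrial oxidation, was higher by 0.45. *Ehhadh*, of peroxisomal oxidation, was higher by 0.54, a call lost when scaled by median ratios (0.40, adjusted p = 0.0957 from limma) or corrected for GC content and length (0.30, adjusted p = 0.209). *Acaa1a*, the peroxisomal thiolase (-0.28), and *Dci*, an enoyl-CoA isomerase (-0.18), were lower. *Cpt1a*, the carnitine palmitoyltransferase of the outer membrane, was not called (0.03).

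Of 14 tested nuclear receptors of lipids and their partners, 2 were higher (14.3%) and 3 lower (21.4%), with a median of -0.11. Over all genes tested, 37.6% were higher and 8.8% lower. Scaled by median ratios 1 was higher and 7 lower, with a median of -0.26, beside 19.7% and 19.6% of all genes. *Rxrg*, a retinoid X receptor of cones, was higher by 0.75 (7.04 and 6.87 against 4.46 and 3.76 FPKM, adjusted p = 0.0031 from limma). *Ppara*, the fatty acid receptor of liver and heart, was higher by 0.24, a call lost with median-ratio scaling. The retinoic acid receptors *Rarg* (-0.39) and *Rara* (-0.30) and the retinoid X receptor *Rxra* (-0.18) were lower, the first pair not when corrected for GC content and length. *Pparg*, the receptor that drives *Fabp4* in fat cells, was at most at 0.0577 FPKM.

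Genes known to act on *Fabp7* in neural cells were read as a list of 17, with 15 tested, 6 higher, 2 lower and a median log2 fold change of 0.27. That is 40% higher and 13.3% lower, close to the 37.6% and 8.8% over all genes tested for FPKM as deposited. Scaled by median ratios, 4 were higher and 2 lower, beside 19.7% and 19.6% of all genes. Corrected for GC content and length, 6 were higher and 3 lower, beside 12.4% and 15.1% of all genes. *Hey2*, a target of Notch, stood at 6.95 and 8.22 FPKM in *rd7* and at 3.66 and 3.76 in wild-type retinas (1.01, adjusted p = 0.0015 from limma). The receptor *Notch1* was higher by 0.91 and its ligand *Dll1* by 0.57, whereas another ligand, *Jag1*, was lower (-0.49), as was *Nfic* of the nuclear factor I family (-0.17). Without wild-type replicate 1, 3 genes of the list were higher and 1 lower, and 1 was lower also without wild-type replicate 2. The Notch targets *Hes1* (-0.06) and *Hes5* (0.32) were not called. When corrected for GC content and length, *Hes5* was called higher (0.42, adjusted p = 0.034 from limma).

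**Figure D5:**
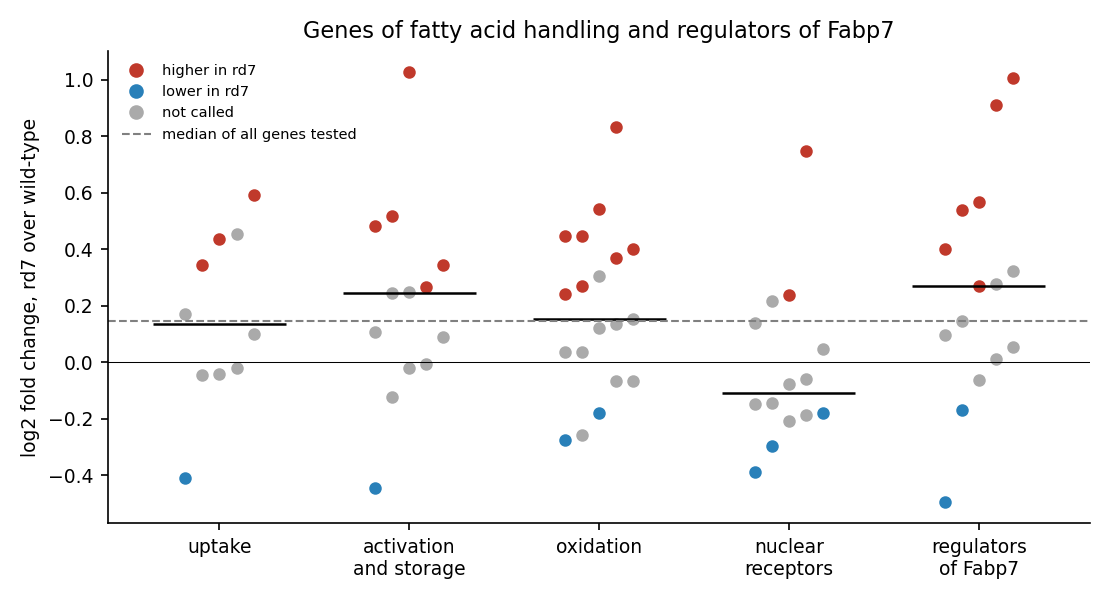
Log2 fold change of *rd7* over wild-type retinas for each tested gene of 4 lists of fatty acid handling and of the list of regulators of *Fabp7*, with black bars for list medians and the dashed line for the median of all genes tested (0.15). Red and blue points passed an FDR of 5% in either direction, and the medians of the lists lie between -0.11 and 0.27.

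Because *Fabp7* is a glial gene, marker lists of cell types were read beside it, and their part in its difference was not tested. All 13 Müller cell markers were tested, of which 8 were higher and 0 lower, beside 37.6% and 8.8% of all genes tested. Scaled by median ratios, 7 were higher and 1 lower, beside 19.7% and 19.6% of all genes. Corrected for GC content and length, 6 were higher and 0 lower, beside 12.4% and 15.1% of all genes. Their log2 fold changes ran from *Apoe* (-0.04, not called) to *Crym* (0.84), with a median of 0.48. Their summed level was 2633 to 2687 FPKM in *rd7* against 2291 to 2356 in wild-type retinas. Of 10 tested markers of reactive Müller cells, 3 were higher (30%, below the share of all genes) and 0 lower, and 2 were higher when scaled by median ratios. They ran from *Lcn2* (-0.18, not called) to *Cntf* (1.72), and the list summed to 44.0 and 108 FPKM in *rd7* against 33.0 to 34.2 in wild-type retinas. *Gfap*, the intermediate filament of reactive glia, stood at 10.3 FPKM in *rd7* replicate 1 and 28.1 in replicate 2, against 7.59 and 8.14 in wild-type retinas. *Edn2* stood at 0.874 and 9.001 FPKM in the same 2 *rd7* pools, against 1.18 and 1.34 in wild-type retinas. The pool with the higher *Fabp7* had the lower *Gfap* and *Edn2*. This compares single pools and was not tested.

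Astrocyte markers had 3 of 6 tested genes higher and 0 lower, and 1 higher when scaled by median ratios, beside 37.6% of all genes, with *Pax2* at most at 0.136 FPKM. Their log2 fold changes ran from -0.12 for *Aldoc* to 1.10 for *Gfap*, neither of them called, with *Gja1* called higher at 1.01. Progenitor markers had 2 of 5 tested genes higher and 0 lower, among them *Ccnd1* (0.43), a cyclin gene. This share is near that of all genes for FPKM as deposited. Scaled by median ratios, 2 were higher and 0 lower, beside 19.7% and 19.6% of all genes. Corrected for GC content and length, 3 were higher and 0 lower, beside 12.4% and 15.1% of all genes. The proliferation gene *Mki67* stood at 0.0840 and 0.0826 FPKM in *rd7* and at 0.0101 and 0.0158 in wild-type retinas. *Top2a*, another gene of dividing cells, stood at 0.0838 and 0.0791 FPKM in *rd7* and at 0.00915 and 0.0137 in wild-type retinas. Both were low in all libraries, below the filter and not tested, and the reads behind these values were not estimated.

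The remaining lists are given for completeness, beside the same 37.6% and 8.8% over all genes. Cone markers were higher in 10 of 12 genes and lower in 0, with a median of 1.15, from *Opn1mw* (-0.16, not called) to *Gnat2* (3.17), and rod markers were lower in 5 of 8 tested and higher in 0, with a median of -0.44, from *Gnat1* (-0.79) to *Pde6b* (0.03, not called). Pigment epithelium markers were higher in 5 of 8 tested and lower in 0 (sum 70.1 to 81.2 FPKM in *rd7* against 29.8 to 45.8). Of microglial markers 1 of 5 tested was higher, *Csf1r* (0.63), and of endothelial markers 2 of 9, *Kdr* (0.51) and *Esam* (0.29), with 0 lower in either list. No lens marker of 8 tested was called, at a median of -0.97. In the list of fat cells the single gene tested, *Retn*, was lower (-0.72), and in that of gut and liver the single gene tested, *Ttr*, which is also a pigment epithelium marker, was higher (1.15).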

How the data were processed

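Polyadenylated RNA of 2 *rd7* and 2 wild-type pools was sequenced as single reads of 50 bp on 1 lane. The authors mapped the reads to mm9 with TopHat 1.4.1 and deposited FPKM per gene and library from Cufflinks 1.3.0, with a status for each estimate. A deposited Cuffdiff table of pooled levels, fold changes and p-values was not used. The annotation is not given in the sources used here.

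Of 22095 loci, 262 had a status other than OK in a library and were left out of tests and sums. log2(FPKM + 0.1) was fitted in R 4.3.3 with limma 3.58.1 (two-sided, eBayes with a variance trend), 2 against 2 libraries without a block, for genes whose FPKM averaged 1 or more. The step was tested on simulated data. An exact permutation test of 2 against 2 libraries cannot go below p = 0.333 and was not used. Libraries with the same replicate number did not deviate together (r = -0.027 across genes), so the numbers do not pair them.

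Depth was estimated from values between 0.02 and 0.04 FPKM times kb, a window chosen by eye, in genes with a single transcript of over 800 bp, and estimated reads of short mRNAs are approximate. Gene models are GENCODE vM1, and mRNA windows were searched in mm9 with BLAST 2.17.0. Promoters in the RefSeq table matched 5 of the 8 members.

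The members, gene lists and tests were chosen with earlier results of these data known. Named are the 8 members, *Nr2e3*, 7 related lipid-binding genes, the 3 highest and 3 lowest called genes of each pathway or regulator list, genes at the ends of marker lists, the nearest locus on each side of each member, and the 5 genes nearest to *Fabp7*. Further genes of these lists (*Sag*, *Glul*, *Cd36*, *Cpt1a*, *Pparg*, *Hes1*, *Hes5*, *Gfap*, *Edn2* and other defining markers) were named after their values were seen. Some genes of these lists are not reported here. The lists overlap in *Gfap*, *Hes1*, *Hes5* and *Ttr*. The alternatives were to add 1 or 0.01 in place of 0.1, to keep low genes, to ask for an average of 5 FPKM or more, to scale the libraries by median ratios or quantiles, to leave out the variance trend, to add a replicate block, to correct for GC content and length (available for 96.2% of the genes tested), and to leave out each library.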

Additional observations from a re-analysis of the deposited data

How the results depend on the processing

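*Fabp7* kept its direction under every alternative, at 5.06 with a pseudocount of 1 and at 5.09 to 5.93 with 1 library left out. *Fabp12* was called higher under all of them. The call of *Fabp5* was lost under 7 alternatives. *Fabp3* turned to -0.106 when scaled by median ratios and to -0.0914 by quantiles, and ran from -0.0492 to 0.146 with 1 library left out. *Fabp4* turned to -0.146 when scaled by median ratios, -0.176 by quantiles and -0.108 when corrected for GC content and length, and ran from -0.22 to 0.231 with 1 library left out, with -0.065 without wild-type replicate 2. *Crabp1* ran from -0.0989 to 0.6125 with 1 library left out. *Nr2e3* lost its call without a filter (adjusted p = 0.0513).

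Counts of calls depended on the processing more than directions did. Without a filter, 2249 genes were called higher and 455 lower. Scaled by median ratios, 2492 were higher and 2479 lower, and by quantiles 2350 and 2404. Corrected for GC content and length, 1515 were higher and 1838 lower, and with 1 library left out 1515 to 5410 and 260 to 1627. Of the paralogs, 1 was called higher in place of 2 without a filter, under either scaling, without a variance trend and after the correction, and 1 to 3 with 1 library left out. Of the other lipid-binding genes, 0 were lower without a filter or when FPKM had to average 5, which leaves *Crabp2* out, and with 1 library left out 1 to 2 were higher and 0 to 1 lower. Of the pathway genes, 9 were higher and 3 lower without a filter, 10 and 13 when scaled by median ratios and 10 and 14 by quantiles. After the correction 9 of them were higher, and with 1 library left out 9 to 22 were higher and 0 to 7 lower. Of the regulators, 3 were higher and 1 lower without a filter, 3 were higher when FPKM had to average 5, 1 was lower without a variance trend, and 3 to 8 were higher and 1 to 3 lower with 1 library left out. With the replicate number as a block, 3 pathway genes and 1 regulator were called lower, and no call of a member changed. Without 1 wild-type library, the remaining one is assumed to vary like the *rd7* pair. Without 1 *rd7* library, the other is assumed to vary like the wild-type pair. That pair differed less, by a median of 0.059 on the log2 scale against 0.095 for the *rd7* pair. Other causes were not tested.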
